A study of Mus musculus with 12 samples.

Results

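The receptors for interleukin-33 (IL-33), IL-18 and IL-1 were examined in cultured mouse basophils. The set was fixed by name and held 6 genes of the 31301 gene symbols in the count table, Il1rl1, Il18r1, Il18rap, Il1rap, Il1r1 and Il1r2. All 6 were in the table, and 4 of them, Il1rl1, Il18r1, Il18rap and Il1rap, passed the filter on low counts and were tested among 10861 genes.

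Bone marrow cells of wild-type C57BL/6J mice were cultured for 7 days with IL-3 at 0.3 ng/mL or with thymic stromal lymphopoietin (TSLP) at 1 µg/mL, the TSLP dose of the treatment protocol, since another label gives a different unit. From both cultures, bone marrow-derived basophils (BMBAs), which the study gates as CD200R3-positive and c-Kit-negative cells, were sorted by flow cytometry by stage. The immature fraction was FcεRIαhi CD49blo, which the study names pre-basophils, and the mature fraction was FcεRIαlo CD49bhi. The 4 groups, named by cytokine and stage, held 3 libraries each. The labels name no deletion, transgene or further stimulation in any group. The study describes the libraries of a group as separate cultures, and p-values measure the spread between these libraries.

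IL-33, IL-18 and IL-1 act through related receptors of the IL-1 receptor family. Each ligand binds its own receptor chain, a second chain then joins, and the paired intracellular TIR domains recruit MyD88, IRAK kinases and TRAF6, which lead to activation of the IKK complex and NF-κB. ST2, encoded by Il1rl1, binds IL-33 and pairs with the accessory protein encoded by Il1rap, which also serves the IL-1 receptor encoded by Il1r1. Il18r1 encodes the chain that binds IL-18 and Il18rap its signalling partner, whereas Il1r2 encodes a decoy that binds IL-1 without signalling. Basophils are known to respond to IL-33 and IL-18 with release of cytokines such as IL-4, IL-13 and IL-6.

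Of the 6 genes, 5 lie on the plus strand of chromosome 1 within 477.6 kb (GRCm38, GENCODE vM21). In order along the chromosome these are Il1r2 (40074079 to 40125231), Il1r1 (40225080 to 40317257), Il1rl1 (40429570 to 40465415), Il18r1 (40465552 to 40500854) and Il18rap (40515362 to 40551705). Il1rap lies apart, on chromosome 16 (26581704 to 26730117, plus strand). The interval on chromosome 1 holds 6 protein-coding genes in all, the other being Il1rl2, the receptor for IL-36. Only 136 bases separate the annotated end of Il1rl1 from the first annotated start of Il18r1, and 14507 bases separate Il18r1 from Il18rap. Exons of Il1rap overlap those of the gene model Gm20319 on the opposite strand, so reads of this pair could not be separated if strand was not used in counting. No exon of the other 5 genes overlaps an exon of another gene.

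The bases upstream of the annotated starts are shown for the neighbouring genes Il1rl1, Il18r1 and Il18rap, which were detected. For Il1r1 and Il1r2, which were nearly silent, and for Il1rap only the motif counts are given. In each window of 250 bases before a RefSeq start (GRCm38.p6, plus strand, 5′ to 3′) a search was made on both strands for the GATA motif (GATA with A or T before it and A or G after it), the STAT motif (TTCNNNGAA) and the RUNX motif (TGTGGT and, as its other form, TGCGGT). All 6 genes matched the RefSeq table. Stretches that overlap an annotated exon are not printed, and capitals mark GATA and STAT motifs, a motif on the minus strand appearing as its reverse complement. The first sequence is upstream of the distal start of Il1rl1 (chr1:40429320-40429569), and the next is upstream of its proximal start (chr1:40439379-40439626). The third fills the gap between Il1rl1 and Il18r1 (chr1:40465416-40465551). The fourth lies before the RefSeq start of Il18r1 farthest downstream (chr1:40465811-40465969), and the fifth lies before Il18rap (chr1:40515112-40515361).
Il1rl1 distal: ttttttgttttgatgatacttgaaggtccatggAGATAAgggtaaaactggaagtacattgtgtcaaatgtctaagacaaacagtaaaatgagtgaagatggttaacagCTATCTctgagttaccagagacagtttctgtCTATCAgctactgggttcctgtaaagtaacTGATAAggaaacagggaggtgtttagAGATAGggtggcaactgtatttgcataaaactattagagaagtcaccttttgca
Il1rl1 proximal: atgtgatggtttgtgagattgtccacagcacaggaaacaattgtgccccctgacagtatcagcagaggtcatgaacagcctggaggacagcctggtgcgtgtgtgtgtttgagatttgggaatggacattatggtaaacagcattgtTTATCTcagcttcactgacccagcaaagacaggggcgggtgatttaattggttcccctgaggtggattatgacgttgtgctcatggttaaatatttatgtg
Il1rl1 to Il18r1 gap: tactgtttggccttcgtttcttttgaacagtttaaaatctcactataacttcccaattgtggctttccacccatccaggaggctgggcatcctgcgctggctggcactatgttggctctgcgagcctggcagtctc
Il18r1 downstream start: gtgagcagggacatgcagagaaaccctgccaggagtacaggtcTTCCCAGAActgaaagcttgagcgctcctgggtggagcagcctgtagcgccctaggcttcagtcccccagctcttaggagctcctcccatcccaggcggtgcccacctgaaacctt
Il18rap: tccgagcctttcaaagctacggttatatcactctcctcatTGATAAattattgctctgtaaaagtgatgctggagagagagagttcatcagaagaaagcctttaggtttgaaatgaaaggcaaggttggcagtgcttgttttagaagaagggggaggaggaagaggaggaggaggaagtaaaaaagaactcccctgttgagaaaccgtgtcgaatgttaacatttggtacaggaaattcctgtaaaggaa

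The window before the distal start of Il1rl1 held 5 GATA motifs, with their first bases 217, 141, 110, 80 and 54 bases before the start. At least 5 were found in 14 of 32851 promoter windows (0.0426%), and at least 1 in 26.5%. The proximal window of Il1rl1 held 1 GATA motif, 103 bases before the start, and 1 RUNX motif that runs into the annotated exon. A RUNX motif was found in 18.6% of windows. The window before the downstream start of Il18r1 held 2 STAT motifs, 219 and 152 bases before the start, of which the second is in the printed stretch and the first lies in an exon of other Il18r1 transcripts. At least 2 STAT motifs were found in 0.317% of windows and at least 1 in 7.02%. The cut-offs of 5 GATA and 2 STAT motifs equal the highest counts in the receptor windows, so the shares at these cut-offs carry no test. The windows before the other 2 starts of Il18r1 held none of the 3 motifs, and that of Il18rap held 1 GATA motif, 210 bases before the start. The windows of Il1rap and Il1r1 held none, and that of Il1r2 held 1 GATA and 1 STAT motif. These matches are a description of the sequence, and neither binding nor use of a start was measured here.

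Library totals ran from 1720065 to 3685285 counts, and the rows of ribosomal RNA (Rn45s, Rn18s and Rn28s1) took 14.7% to 24.97% of the counts in IL-3 and 17.3% to 40.1% in TSLP libraries. The replicates of TSLP mature cells were the least alike. TSLP mature 1 had 571 counts of Ngp and 1048 of S100a9, made by neutrophils, against at most 18 and 33 in the other TSLP mature libraries, and 260 counts of the B cell gene Cd79b against at most 28. The 7 neutrophil genes examined summed to 13.2 to 670 CPM in TSLP mature libraries, 313 to 400 in TSLP immature, 176 to 266 in IL-3 mature and 726 to 802 in IL-3 immature libraries, with Mpo as the main source in immature cells. The 6 B lineage genes summed to 12.2 to 127 CPM in TSLP mature, 24.4 to 29.96 in TSLP immature and at most 6.95 in IL-3 libraries. The 2 of them that were tested, Cd79a and Cd79b, were called higher in TSLP than in IL-3 mature cells. There 24.3% of all tested genes were called in either direction. TSLP mature 1 also had the lowest level of each of the 4 tested receptors among TSLP mature libraries. The part of these other transcripts in the results was not tested, and receptor results are given without this library where that changes a call.

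The basophil label was checked with Mcpt8, Prss34, Cd200r3, Fcer1a, Ms4a2, Itga2 and Gata2, all 7 of which were expressed in every library. Their summed level was 7445 to 41160 CPM (counts scaled to a common library size after TMM normalisation) and was lower in mature cells. It was 37667 to 41160 CPM in immature and 9292 to 11613 in mature libraries with IL-3. With TSLP it was 26715 to 29732 in immature and 7445 to 10586 in mature libraries. Fcer1a and Itga2 encode the markers used to sort the stages, and Cd200r3 encodes a marker of the basophil gate. Expression of these genes is thus no independent check of the label. The same holds for a low level of Kit, which encodes the c-Kit of that gate. Since ST2 is also found on mast cells, eosinophils and type 2 innate lymphoid cells, their markers were examined beside it. The 6 mast cell genes summed to at most 8.90 CPM in any library, Tpsab1 had no count in any library and none of the 6 was abundant enough to be tested. The eosinophil gene Epx had 0 to 2 counts per library, and the 3 eosinophil genes together reached 8.99 to 51.0 CPM. Of these, Siglecf was called higher in mature cells with IL-3 (4.70 and 20.4 CPM in immature and mature cells, edgeR adjusted p = 7.03e-06). With TSLP it was also called higher (6.14 and 32.9 CPM, edgeR adjusted p = 2.34e-06). Prg2 was called lower in mature cells with IL-3 (23.6 and 3.24 CPM, edgeR adjusted p = 0.00702) and was not called with TSLP (7.41 and 7.27 CPM). The part of these genes in the values of Il1rl1 was not tested. The 5 genes of T cells and innate lymphoid cells reached 18.6 to 46.9 CPM, mostly from Rora and Thy1, and Gata3 had at most 7 counts in a library. Il1rl1 itself was at 550.4 to 1321.4 CPM.

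Levels of different genes were compared as CPM per kilobase of the longest annotated transcript, which is 5.302 kb for Il1rl1, 4.158 kb for Il18r1, 4.889 kb for Il18rap and 4.52 kb for Il1rap. This division assumes reads from along the whole transcript, and coverage along transcripts was not examined. Il1rl1 was the most abundant of the 6 per length in every group, with 153 ± 21.8 and 214 ± 33.7 CPM per kilobase in immature and mature cells of IL-3 cultures and 129 ± 4.51 and 143 ± 34.8 in those of TSLP cultures (mean ± SD, n = 3). It ranked between 266 and 341 of 10235 tested genes with a length. The IL-18 receptor chains followed, with group means of 42.7 to 142 CPM per kilobase for Il18r1 and 78.8 to 104 for Il18rap. Il1rap was far lower, with group means of 2.62 to 6.52 CPM per kilobase and ranks of 4897 to 7707. The gene count does not separate the soluble and membrane forms of ST2 or of the accessory protein, since Il1rl1 has 5 and Il1rap 7 annotated transcripts.

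**Figure D1:**
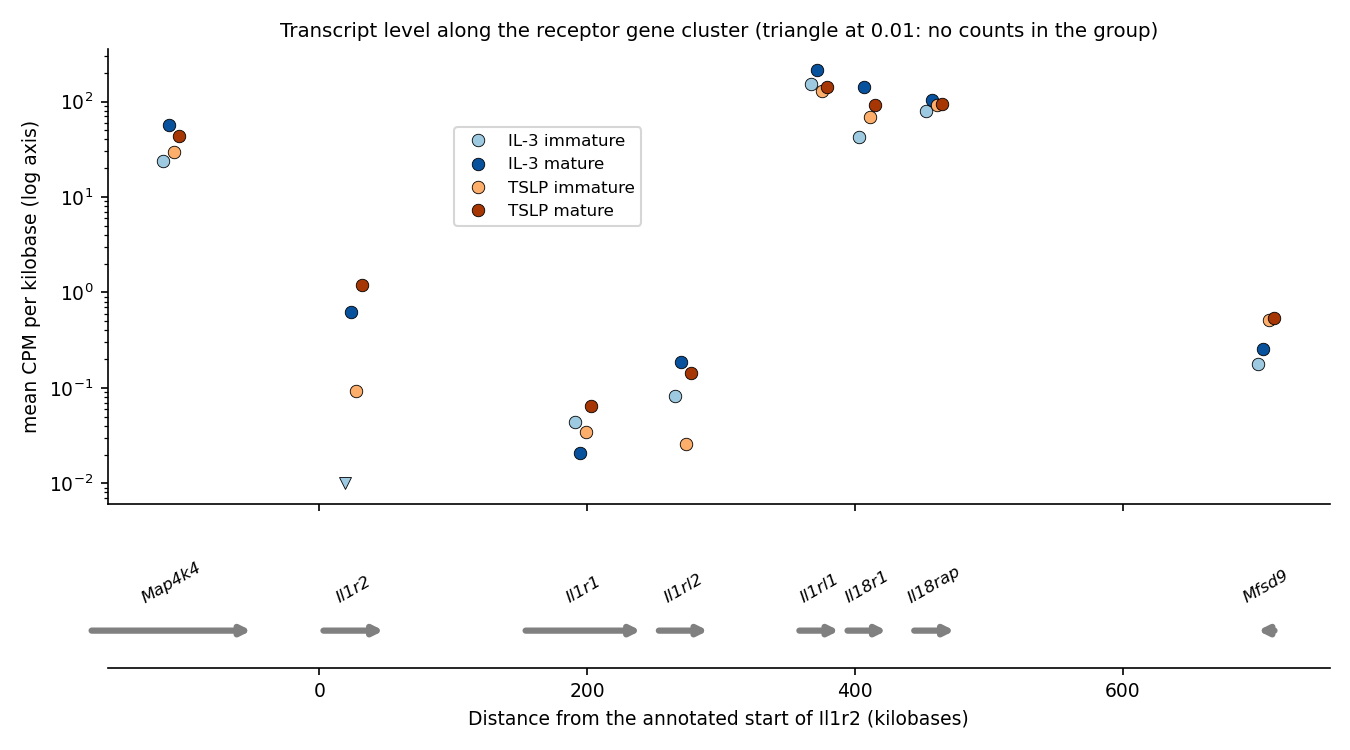
Mean CPM per kilobase of the longest transcript (log axis) in the 4 groups for Il1r2, Il1r1, Il1rl2, Il1rl1, Il18r1, Il18rap and the nearest counted protein-coding neighbours, placed by distance in kilobases from the annotated start of Il1r2, with arrows for gene extent and strand. Il1rl1, Il18r1 and Il18rap lie between 42.7 and 214 CPM per kilobase, and Il1r2 and Il1r1 lie at or below 1.18, with a triangle for Il1r2 in IL-3 immature cells, where it had no count.

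The IL-1 receptors were barely detected. Il1r1 had 2 counts in all immature and 1 in all mature libraries with IL-3, and 2 and 4 with TSLP, and no library had more than 3. Il1r2 had no count in the immature libraries and 2, 4 and 1 in the mature libraries with IL-3, and 0, 1 and 0 against 11, 4 and 3 with TSLP. Counts of the decoy receptor were thus found mainly in mature cells. With IL-3, the 7 counts in mature against 0 in immature cells put the lower 95% exact limit of the mature to immature ratio at 1.59 (counting error only). With TSLP this ratio was 15.2 (95% exact interval 2.39 to 631), and 9.12 (1.17 to 411) from 7 against 1 counts without TSLP mature 1, an alternative chosen after the values were seen. The 11 counts were in that library, which also held neutrophil and B cell transcripts, and both of these cells are known to make Il1r2. Neither gene passed the filter, so neither was tested with the others. In a fit of all 22634 genes with no filter, Il1r2 was called higher in mature cells of IL-3 (edgeR adjusted p = 0.042) and of TSLP cultures (edgeR adjusted p = 0.0353). In that fit 22.6% and 12.8% of all genes were called in these comparisons, in either direction. The Il1r2 calls rest on the few counts given above.

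Genes of neutrophils were examined beside Il1r2. Of the 6 that were tested, Mpo was called lower in mature cells of both cultures. The others, Ngp, S100a8, S100a9, Ltf and Camp, were at 5.87, 19.1, 32.0, 1.98 and 0.719 CPM in immature and 20.7, 65.0, 111, 8.11 and 4.82 CPM in mature cells with IL-3, without overlap between the libraries but not called (edgeR adjusted p from 0.0874 to 0.204). With TSLP all 5 were called higher in mature cells (edgeR adjusted p from 0.00997 to 0.0434), although the libraries overlapped for each but Ngp. In that direction, 12.9% of all tested genes were called. TSLP mature 1 held the highest level of each, at 154, 135, 283, 58.0 and 20.8 CPM in the order above. The lowest TSLP mature library was at 5.11, 1.23, 4.62, 0.615 and 0.308 CPM. The TSLP immature means were 3.29, 5.33, 10.2, 0.675 and 0.591 CPM. Values of the fit without TSLP mature 1 are not given for these genes. The part of the neutrophil genes in the values of Il1r2, and in those of Il1b given further on, was not tested.

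Il18r1 was the receptor that was called in the most comparisons, 3 pairwise ones and the interaction, where a gene was called at an adjusted p under 0.05. In IL-3 cultures it was at 154.3, 193.1 and 184.7 CPM in the immature libraries and at 553.9, 637.5 and 582.7 CPM in the mature libraries. In TSLP cultures it was at 293.8, 259.8 and 297.9 CPM in the immature libraries and at 308.9, 437.2 and 413.2 CPM in the mature libraries. The lowest level was thus in IL-3 immature cells (177.4 ± 20.4 CPM, mean ± SD, n = 3), followed by TSLP immature (283.8 ± 20.9), TSLP mature (386.4 ± 68.2) and IL-3 mature cells (591.3 ± 42.5), with no overlap between any neighbours in this order.

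Il18r1 was 3.33-fold higher in mature than in immature cells of IL-3 cultures (log2 fold change of immature against mature -1.74, SE 0.18, adjusted p = 1.18e-06, edgeR quasi-likelihood test with Benjamini-Hochberg adjustment over all genes tested). In TSLP cultures it was 1.36-fold higher in mature cells, which did not pass the threshold of 0.05 (log2 fold change -0.44, SE 0.18, adjusted p = 0.0775 in the edgeR test) but did so without TSLP mature 1 (-0.49, adjusted p = 0.0262). The difference between these changes, tested as the interaction of cytokine and stage, was 1.29 on the log2 scale (SE 0.25, 95% interval 0.76 to 1.82, adjusted p = 0.00853 in edgeR). A positive interaction means that immature minus mature cells gave a larger value in TSLP than in IL-3 cultures. This interaction was called in each of the 12 fits that left out 1 library, with values of 1.2 to 1.41 and adjusted p from 0.00322 to 0.0258.

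The genes of the sort markers also differed between the cultures. Itga2, which encodes CD49b, was at 27.3 and 247 CPM in immature and mature cells with IL-3 (9.07-fold higher in mature cells, edgeR adjusted p = 1.67e-07) and at 86.4 and 168 CPM with TSLP (1.95-fold, edgeR adjusted p = 0.0111). Its interaction was 2.22 (SE 0.37, edgeR adjusted p = 0.00287), in the direction of Il18r1. Fcer1a was 1.56-fold higher in immature cells with IL-3 (edgeR adjusted p = 0.0355), and with TSLP the difference was 0.08 on the log2 scale (edgeR adjusted p = 0.835), with an interaction of -0.56 (adjusted p = 0.397). Their part in the interaction of Il18r1 was not tested.

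Between cytokines, Il18r1 changed in opposite directions at the stages. It was 1.6-fold higher in TSLP than in IL-3 immature cells (log2 fold change 0.68, SE 0.18, edgeR adjusted p = 0.021) and 1.53-fold lower in TSLP than in IL-3 mature cells (-0.61, SE 0.18, edgeR adjusted p = 0.0203). The first call was lost without replicate 1 (0.57, adjusted p = 0.0925) or 2 (0.71, 0.0519) of IL-3 immature cells or replicate 1 (0.6, 0.0824) or 3 (0.63, 0.0848) of TSLP immature cells, and the second without IL-3 mature 2 (-0.62, 0.05001). When the group means on the log2 scale were placed on a scale from immature (0%) to mature (100%) cells of IL-3 cultures, TSLP immature cells stood at 39.0% and TSLP mature cells at 64.6% for Il18r1.

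Il18rap, the partner chain, varied less. With IL-3 it was at 365.3, 379.7 and 411.5 CPM in the immature and 498.7, 520.9 and 498.8 CPM in the mature libraries. With TSLP it was at 433.3, 418.5 and 497.4 CPM in the immature and 336.7, 506.7 and 529.2 CPM in the mature libraries. The IL-3 groups did not overlap, whereas TSLP mature libraries lay on both sides of the TSLP immature ones, with TSLP mature 1 as the lowest of all 12. The IL-3 mature level was 1.31-fold that of IL-3 immature cells (log2 fold change of immature against mature -0.39, SE 0.19, edgeR adjusted p = 0.0943), and this difference passed the threshold without TSLP mature 1 (-0.35, adjusted p = 0.0399), although that library is in neither group. The order of the group means was IL-3 immature (385.5 ± 23.7 CPM), TSLP immature (449.7 ± 42.0), TSLP mature (457.5 ± 105) and IL-3 mature (506.1 ± 12.8). Among neighbours in this order, only IL-3 immature and TSLP immature libraries did not overlap. In TSLP cultures the difference was -0.02 with a 95% interval of -0.42 to 0.37, and its sign turned under other scalings. TSLP against IL-3 gave -0.15 (SE 0.18, adjusted p = 0.602) in mature and 0.22 (SE 0.19, adjusted p = 0.466) in immature cells, and the interaction was 0.37 (SE 0.26, adjusted p = 0.494).

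The balance of the 2 IL-18 receptor chains was read as the ratio of their counts within a library, which does not depend on how libraries are scaled. These ratios were chosen after the values were seen. With IL-3, Il18r1 had 0.422, 0.509 and 0.449 counts per Il18rap count in the immature and 1.11, 1.22 and 1.17 in the mature libraries. With TSLP it had 0.678, 0.621 and 0.599 in the immature and 0.917, 0.863 and 0.781 in the mature libraries. The 4 groups did not overlap, and TSLP mature 1, which had low levels of both genes, had the highest ratio of its group. The mean ratio was 2.54 times as high in IL-3 mature as in IL-3 immature cells and 1.35 times as high in TSLP mature as in TSLP immature cells. Each of the 4 comparisons of this ratio gave p = 0.1 in an exact two-sided permutation test, the smallest value that 3 against 3 libraries allow, and 0.133 after adjustment over the 8 ratio tests made.

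**Figure D2:**
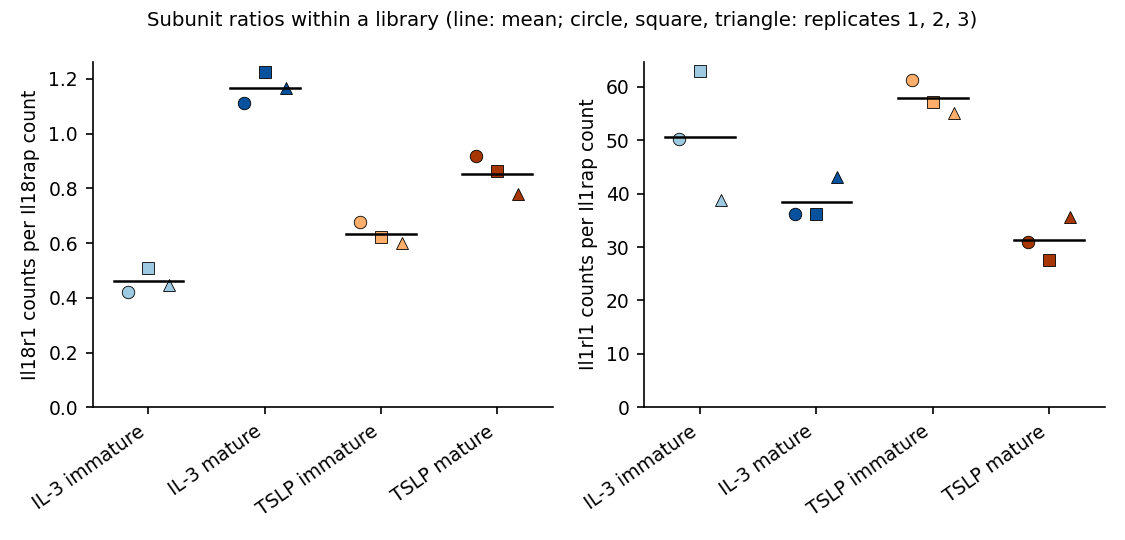
Counts of Il18r1 per count of Il18rap (left) and of Il1rl1 per count of Il1rap (right) in each library, by group, with lines at the group means and symbols for replicates 1 to 3. On the left the groups run without overlap from IL-3 immature (0.46) to TSLP immature (0.633), TSLP mature (0.854) and IL-3 mature (1.17), and on the right the TSLP mature libraries (27.5 to 35.6) lie below the other 9.

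Il1rl1, which encodes ST2, was at 878.6, 881.3 and 679.7 CPM in IL-3 immature libraries and at 964.9, 1122.3 and 1321.4 CPM in IL-3 mature libraries. It was at 700.9, 692.0 and 655.7 CPM in TSLP immature libraries and at 550.4, 827.9 and 899.1 CPM in TSLP mature libraries. The IL-3 mature libraries were the highest 3 of the 12, and the TSLP stages overlapped. In order, the group means were 682.9 ± 23.9 CPM in TSLP immature, 759.1 ± 184 in TSLP mature, 813.2 ± 116 in immature cells with IL-3 and 1136.2 ± 179 in mature cells with IL-3. TSLP mature libraries overlapped both sets of immature libraries, and neither the TSLP stages nor the immature groups differed beyond their spread.

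The stage difference of Il1rl1 in IL-3 cultures was 1.4-fold, higher in mature cells, and did not pass the threshold (log2 fold change of immature against mature -0.48, SE 0.21, edgeR adjusted p = 0.0653). It did so without IL-3 mature 1 (-0.59, adjusted p = 0.0491) or TSLP mature 1 (-0.44, adjusted p = 0.029). In TSLP cultures it was -0.15 (SE 0.21, adjusted p = 0.634), and the interaction was 0.33 (SE 0.29, 95% interval -0.28 to 0.94, adjusted p = 0.599). Il1rl1 was 1.5-fold lower with TSLP than with IL-3 in mature cells (-0.58, SE 0.21, edgeR adjusted p = 0.0499), a call at the edge of the threshold. It was lost without IL-3 mature 1 (-0.69, 0.0506), IL-3 mature 2 (-0.66, 0.075), IL-3 mature 3 (-0.53, 0.122) or TSLP mature 1 (-0.48, 0.0562), where the second value is the adjusted p. In immature cells the difference between cytokines was -0.25 (SE 0.21, adjusted p = 0.455).

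Il1rap, the accessory chain shared by ST2 and the IL-1 receptor, was higher in mature cells of both cultures. With IL-3 it was at 17.5, 14.0 and 17.5 CPM in the immature and 26.7, 30.96 and 30.7 CPM in the mature libraries. With TSLP it was at 11.4, 12.1 and 11.9 CPM in the immature and 17.8, 30.1 and 25.2 CPM in the mature libraries. Stages did not overlap in either culture. The means rose in the order TSLP immature (11.8 ± 0.35 CPM), IL-3 immature (16.3 ± 2.03), TSLP mature (24.4 ± 6.18) and IL-3 mature (29.4 ± 2.37), of which the last pair overlapped. Il1rap was 1.81-fold higher in mature cells with IL-3 (log2 fold change of immature against mature -0.86, SE 0.22, edgeR adjusted p = 0.00403) and 2.06-fold higher with TSLP (-1.04, SE 0.22, edgeR adjusted p = 0.0025). Both calls were made in all 12 fits that left out 1 library, with adjusted p up to 0.0319 and 0.0202. TSLP against IL-3 gave -0.27 (SE 0.21, adjusted p = 0.358) in mature and -0.46 (SE 0.23, adjusted p = 0.203) in immature cells, and the interaction was -0.19 (95% interval -0.84 to 0.47, adjusted p = 0.811), so a different size of the stage change in the 2 cultures was not shown.

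Counts of Il1rl1 per count of Il1rap were 50.3, 63.0 and 38.7 in the immature and 36.1, 36.2 and 43.1 in the mature libraries with IL-3. With TSLP they were 61.3, 57.1 and 55.0 in the immature and 30.9, 27.5 and 35.6 in the mature libraries. The TSLP stages were apart, with a mean of 57.8 in immature and 31.4 in mature cells (exact two-sided permutation test, p = 0.1, the smallest possible), and the IL-3 stages overlapped (50.7 and 38.5, p = 0.2 in the same exact test).

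**Figure D3:**
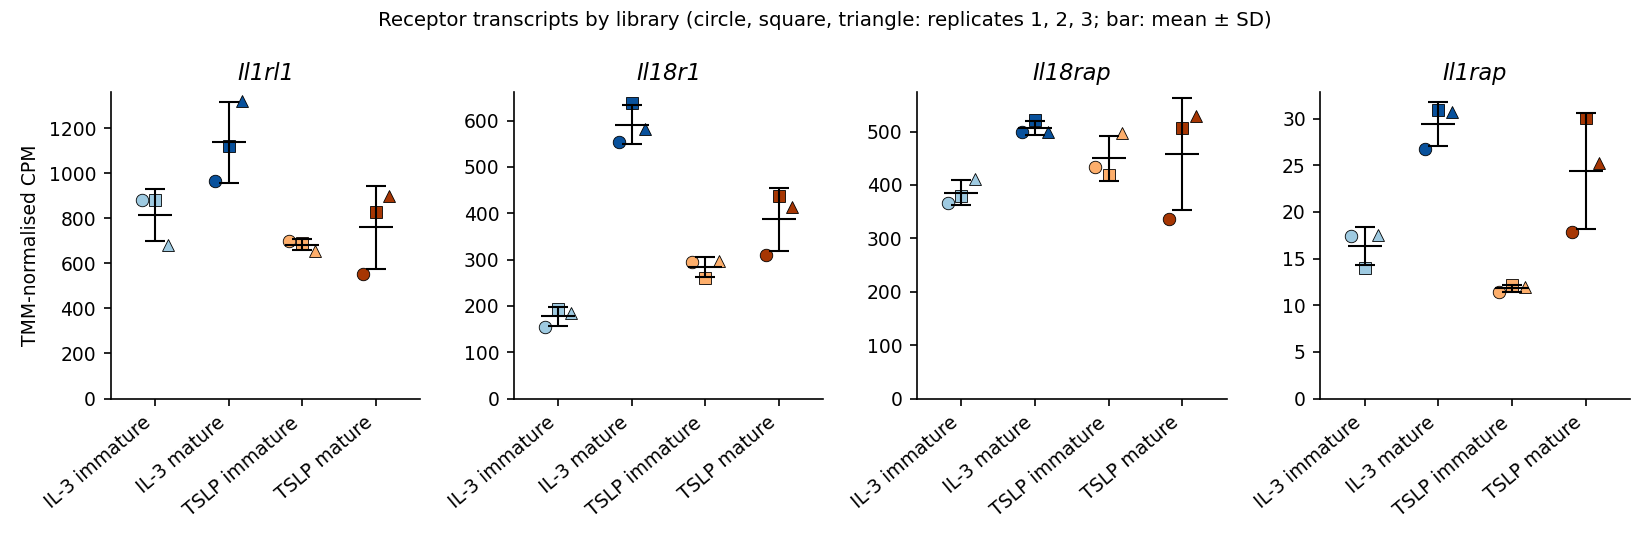
TMM-normalised CPM of Il1rl1, Il18r1, Il18rap and Il1rap in each library (circle, square and triangle for replicates 1, 2 and 3) by group, with mean ± SD of 3 libraries and axes from 0. The IL-3 mature libraries are the highest 3 of 12 for Il1rl1 and Il18r1, and TSLP mature 1 (circle) is the lowest TSLP mature library in each panel.

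The calls are summarised here beside those over all 10861 tested genes. Between the stages of IL-3 cultures, 2 of the 4 tested receptors were called, both higher in mature cells, where 46.2% of all tested genes were called and 24.1% were called and higher in mature cells. Between the stages of TSLP cultures, 1 of 4 was called, higher in mature cells (all genes 25.1%, and 12.9% in that direction). Between cytokines in mature cells, 2 of 4 were called, both lower in TSLP (all genes 24.3%, and 11.9% lower in TSLP). Between cytokines in immature cells, 1 of 4 was called, higher in TSLP (all genes 13.3%, and 7.38% in that direction). The interaction was called for 1 of 4, in the positive direction (all genes 4.19%, and 2.15% in that direction). With 4 genes tested, these counts do not set the receptors apart from the other genes. Without TSLP mature 1, all 4 were called between the stages of IL-3 cultures, each higher in mature cells, while the calls over all genes rose from 5020 to 5676, or 51.5% of 11020. In bulk libraries, fewer cells that express a gene cannot be told apart from less RNA of it per cell.

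**Figure D4:**
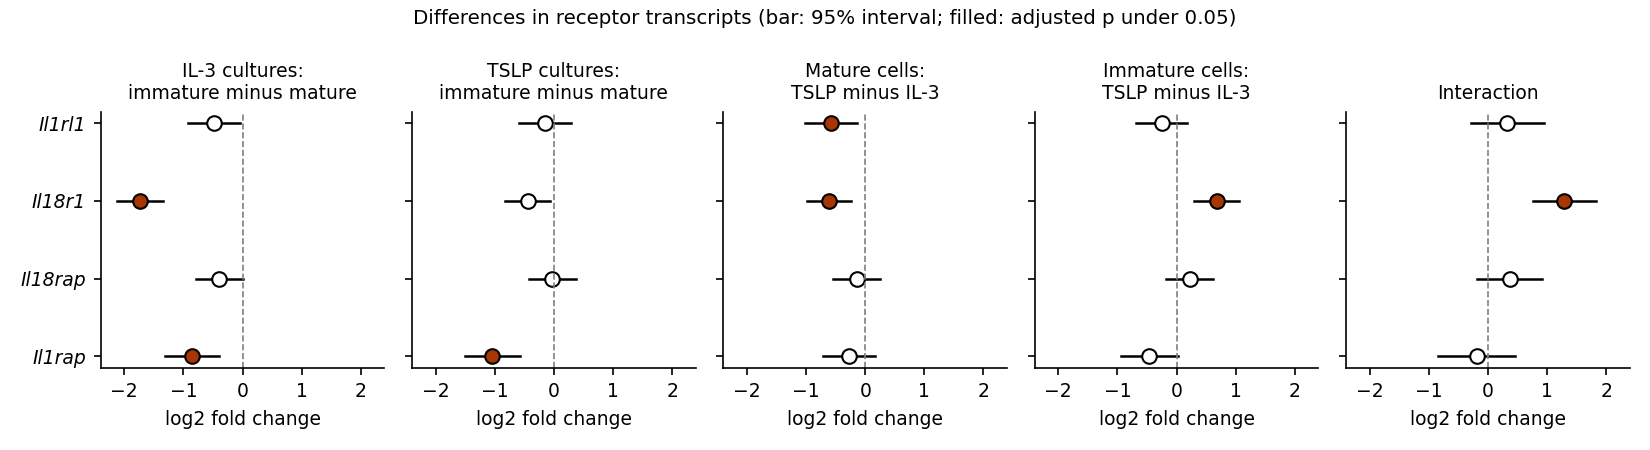
Log2 fold changes of Il1rl1, Il18r1, Il18rap and Il1rap in the 4 pairwise comparisons and the interaction, with 95% intervals and filled points where the edgeR adjusted p was under 0.05. Il18r1 is filled in 4 of the 5 panels and is the only filled point for the interaction (1.29), and Il1rap is filled in both stage comparisons.

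The genes whose level over the 12 libraries was most like that of each receptor were taken from 7546 tested genes averaging 10 CPM or more, by Pearson r of log2 CPM. These values describe libraries that share groups and depth, and carry no test. Il18r1 was most like Itgb1, the integrin β1 chain (r = 0.98), Fgl2, a fibrinogen-like protein (r = 0.98), and Ifrd1 (r = 0.97). Itgb1 was at 142 ± 7.28 CPM in immature cells with IL-3, 218 ± 11.4 in those with TSLP, 407 ± 77.6 in mature cells with TSLP and 738 ± 40.6 in those with IL-3, the order seen for Il18r1. Itgb1 pairs with the product of Itga2, CD49b, on which the cells were sorted. Il1rl1 was most like Arid4b (r = 0.96), Akap13 (0.95) and Mier1 (0.94), and Il18rap was most like Rab8b (0.96), the TGF-β receptor gene Tgfbr1 (0.94) and Ssh2 (0.94). Il1rap was most like Safb2 (0.94), Dyrk2 (0.93) and Gxylt1 (0.93). Among the 4 receptors the highest r was that of Il18r1 with Il18rap (0.76) and the lowest that of Il18rap with Il1rap (0.54).

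The neighbours of the cluster were then examined. Of 8 annotated genes with counts inside the interval or among the nearest 3 on either side, only Map4k4, which encodes a kinase and lies before Il1r2, was abundant enough to be tested. It was higher in mature cells of IL-3 cultures (log2 fold change of immature against mature -1.23, SE 0.19, edgeR adjusted p = 8.23e-05) and of TSLP cultures (-0.55, SE 0.19, edgeR adjusted p = 0.046). The other 7 had 2 to 45 counts over all 12 libraries, among them Il1rl2 with 15.

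Other genes of the receptor family and the ligands were mostly absent. Of 4 further family genes, only Sigirr, an inhibitory receptor, was tested, and it was 2.25-fold higher with TSLP than with IL-3 in mature cells (log2 fold change 1.17, SE 0.22, edgeR adjusted p = 0.00188) and not called in the other comparisons. Of 11 ligands and soluble inhibitors, 9 were in the table and 2 were tested, and neither Il33 nor Il1a had a count in any library. Il1b, which encodes IL-1β, was low and higher in mature cells, with 1.46 and 8.76 CPM in the IL-3 stages (-2.51, SE 0.48, adjusted p = 0.000508) and 1.53 and 7.69 CPM in TSLP cells (-2.35, SE 0.48, adjusted p = 0.00184). Il1rn, the IL-1 receptor antagonist, was called in all 4 pairwise comparisons. Its mean was 8.17 and 17.9 CPM in immature and mature cells with IL-3 and 21.7 and 36.8 CPM with TSLP, so that it was higher in mature cells and higher with TSLP. Of 4 macrophage genes, Adgre1, Csf1r and Cd68 were called higher in mature cells of both cultures, as Il1b and Il1rn were. C1qa was called higher in mature cells only with TSLP, and with IL-3 was at 3.75 and 1.94 CPM in immature and mature cells (edgeR adjusted p = 0.528). The summed level of the 4 was 13.9 to 27.7 CPM in immature and 112 to 175 in mature libraries with IL-3, and 59.2 to 72.5 and 232 to 269 with TSLP, mostly from Adgre1, and C1qa had at most 17 counts in a library apart from TSLP mature 1 with 46. Their part in the result was not tested.

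The pathway from MyD88 to the IKK complex was described with 19 genes, of which 18 were tested. In IL-3 cultures, 5 were higher in mature and 0 in immature cells, with a median log2 fold change of -0.13 over the 18 against -0.06 over all genes tested, and with 24.1% of all genes called higher in mature cells. These were Myd88, the adaptor (-0.72, adjusted p = 0.0108), the kinase gene Irak2 (-1.75, adjusted p = 2.16e-05), the ubiquitin ligase gene Peli1 (-1.66, adjusted p = 4.37e-06), Tab2, a partner of the kinase TAK1 (-1.16, adjusted p = 2.58e-05), and Ikbkb, a kinase of the IKK complex (-0.85, adjusted p = 0.00102). In TSLP cultures, Myd88 (-0.61, adjusted p = 0.0368) and Irak2 (-0.96, adjusted p = 0.00311) were higher in mature cells and none in immature cells (2 of 18, where 12.9% of all genes were called in that direction, with a median of -0.05 against -0.03 over all). Peli1 (-0.58, adjusted p = 0.029) and Tab2 (-0.57, adjusted p = 0.0183) were lower in TSLP than in IL-3 mature cells (2 of 18 against 11.9% of all genes, median -0.02 against 0.09). In immature cells, Irak2 (1.29, adjusted p = 0.00309), Peli1 (1.07, adjusted p = 0.00276) and Chuk, another kinase of the IKK complex (0.68, adjusted p = 0.0439), were higher in TSLP than in IL-3 (3 of 18 against 7.38% of all genes, median 0.17 against 0.04). Nothing particular to the pathway can be read from these counts. Between cytokines, Peli1 thus took the directions seen for Il18r1, and it was the only gene of the 18 called for the interaction (1.65, SE 0.27, adjusted p = 0.00257).

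Transcripts of cytokines and chemokines that basophils are known to release on IL-33 or IL-18 were compared in the same way, and 7 of 10 were tested. All 7 were higher in IL-3 mature than in IL-3 immature cells, with a median log2 fold change of -2.22 against -0.06 over all genes tested, where 24.1% of all genes were called in that direction. They were Il4 (-1.49), Il13 (-1.91), Il6 (-2.22), Tnf (-1.66), Ccl3 (-2.32), Ccl4 (-3.17) and Cxcl2 (-2.63), with adjusted p of at most 0.000566 in edgeR. In TSLP cultures, 3 of 7 were called, all higher in mature cells, namely Il6 (-0.69), Ccl3 (-1.21) and Ccl4 (-1.58), and the median was -0.43 against -0.03 over all (12.9% of all genes called in that direction). Il6 was at 80.3 and 374 CPM in immature and mature cells with IL-3 and at 350.3 and 567 CPM with TSLP. In immature cells, Il6 (2.13), Tnf (1.91), Ccl3 (1.10) and Ccl4 (1.84) were higher with TSLP than with IL-3 (median 1.10 of the 7 against 0.04, 7.38% of all genes called in that direction), and in mature cells Il13 (-1.72) and Cxcl2 (-1.93) were lower with TSLP (median -0.02 against 0.09, 11.9% of all genes). The interaction was called for Il6 (1.53, SE 0.31, adjusted p = 0.0101), Ccl4 (1.58, SE 0.26, adjusted p = 0.003) and Cxcl2 (2.64, SE 0.49, adjusted p = 0.00597), in the direction of Il18r1. For Il4 and Il13 it was 1.19 (adjusted p = 0.107) and 1.94 (adjusted p = 0.0595). Among the 4 macrophage genes, only Adgre1 was called between cytokines in immature cells and for the interaction. The median log2 fold changes of the 4 were -0.13 and -0.43 there. Between the stages, the calls of all 4 are given above. Adgre1 moved with several of the cytokine and chemokine genes. It was at 4.04 and 93.8 CPM in immature and mature cells with IL-3 (23.9-fold higher in mature cells, edgeR adjusted p = 1.37e-09) and at 51.4 and 195 CPM with TSLP (3.80-fold, edgeR adjusted p = 2.05e-06). In immature cells it was 13.0-fold higher with TSLP than with IL-3 (edgeR adjusted p = 1.27e-07), and its interaction was 2.65 (edgeR adjusted p = 0.000178). Its part in the values of the cytokine and chemokine genes was not tested.

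**Figure D5:**
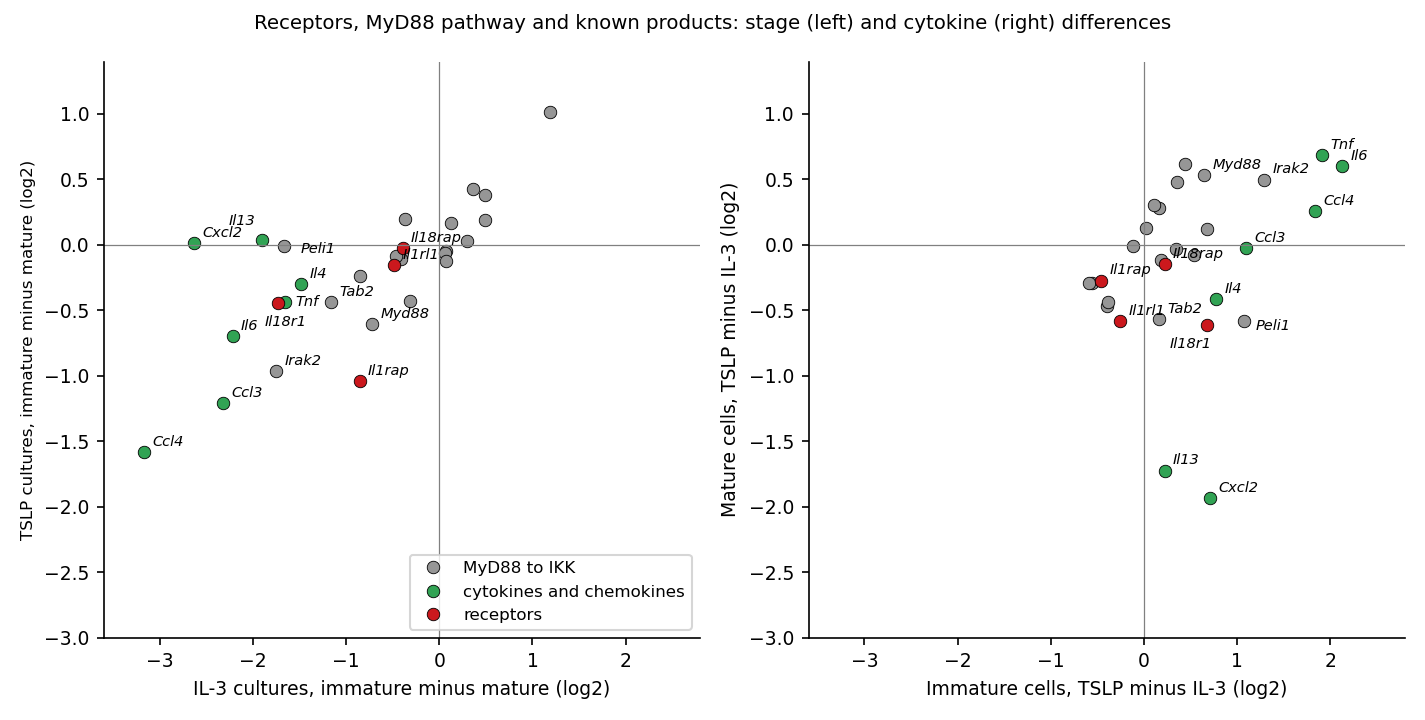
Log2 fold changes of the tested receptors (red), MyD88 pathway genes (grey) and cytokine or chemokine genes (green), with stage differences in IL-3 (x) against TSLP cultures (y) on the left, and TSLP minus IL-3 in immature (x) against mature cells (y) on the right. Il18r1 lies at -1.74 and -0.44 on the left and at 0.68 and -0.61 on the right, near Peli1 (1.07 and -0.58).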

How the data were processed

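Raw counts per gene for 12 libraries were deposited by the authors as a single table. The study's methods state that polyadenylated RNA was captured and amplified as cDNA, and that reads were trimmed with Cutadapt aligned with Bowtie2 to mouse reference RNA and counted per gene. How reads that match several transcripts were treated is not given in the sources used here. At most 0.32% of the 50-base stretches of a receptor gene's exons occur in another gene. An unnamed row that summed all others (50% of each column) was left out.

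Tests used edgeR 4.0.16 (quasi-likelihood F test, R 4.3.3), after filterByExpr (minimum count 10, total 15) and TMM normalisation, in 1 fit of 4 group means over 12 libraries without a block. Benjamini-Hochberg adjustment ran over 10861 genes, with a threshold of 0.05. The common biological coefficient of variation was 20.4%. Alternatives included DESeq2 1.42.0, and the step was tested on simulated data. Floors (3 counts over a group, 0.286 to 0.386 CPM) and intervals of counts cover counting error only. The receptors, the gene lists and the tests were chosen with earlier results of these data known. All 6 receptors were named, as were list genes called in a pairwise comparison, and the 3 genes most like each receptor. Sequences were taken from RefSeq (GRCm38.p6) and positions from GENCODE vM21 (GRCm38). The study's methods name reference RNA of GRCm38, whereas the submitters' processing notes name GRCm39 and mm10, so the annotation behind the counted symbols is uncertain. 1 gene of a marker list is not reported here.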

Additional observations from a re-analysis of the deposited data

Results flagged for a closer look

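Several results differed between the cultures by the test of the difference itself, the interaction of cytokine and stage. For Il18r1 the immature minus mature difference was 1.29 higher on the log2 scale in TSLP than in IL-3 cultures (edgeR adjusted p = 0.00853). The same held for Peli1 of the MyD88 pathway (1.65) and for the cytokine and chemokine genes Il6 (1.53), Ccl4 (1.58) and Cxcl2 (2.64). Cell type markers were not part of this list, and Itga2 and Adgre1 among them were also called, as given above. Of all tested genes, 4.19% were called for the interaction. No group held enough libraries to examine single libraries by the rule for far values.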

How the results depend on the processing

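Of 416 alternative values for the 20 receptor results, 381 kept their direction and their side of the threshold, 12 kept the direction and lost the call, 4 gained a call and 19 turned direction, the last all from values that were not called. The value for Il18rap between TSLP stages turned to 0.0188 with DESeq2 size factors, 0.00623 with TMM on uncalled genes, 0.019 in the DESeq2 test, 0.0261 without a low-count filter, 0.0856 with a filter of 10 CPM, 0.0688 without Rn45s, 0.0392 without the 3 ribosomal RNA rows (an alternative added after seeing the data) and 0.0158 in a fit of only those groups, and ran from -0.11 to 0.15 as single libraries were left out. Leaving out 1 library gave -0.24 to 0.0505 for Il1rl1 between TSLP stages and -0.32 to 0.0152 for the interaction of Il1rap. Without a low-count filter, the receptors called were 3 between IL-3 stages and 2 between TSLP stages, the added one being Il1r2 with 7 against 0 and 18 against 1 counts, and 0 between mature cells, with 5115, 2886 and 2780 of 22634 genes called in all, and 1 was called there in a fit of only those groups, with 1714 genes called in all. The calls lost or gained in mature cells were Il1rl1 (adjusted p = 0.074 without the filter and 0.0925 in that fit) and Il18r1 (0.0516 without the filter). As single libraries were left out, the receptors called ranged from 2 to 4 between IL-3 stages, 1 to 2 between TSLP stages, 0 to 2 between mature and 0 to 1 between immature cells. All genes called ranged from 4193 to 5676 between IL-3 stages, 1774 to 3456 between TSLP stages, 1658 to 2968 between mature cells, 588 to 2243 between immature cells and 240 to 723 for the interaction, and in each the highest count was without TSLP mature 1. The cause of these changes was not tested.

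Whether the replicate numbers pair the libraries was not settled. Deviations of libraries with the same number correlated at -0.08 to 0.39, and every comparison had a pair under 0.1. Of 6 libraries in a comparison, 3 correlated best with their own number between IL-3 stages, 5 between TSLP stages, 3 between mature and 6 between immature cells. With a replicate block, the Il18r1 interaction was 1.31 (edgeR adjusted p = 0.00463) and the calls of the receptors did not change. In the 5 comparisons, in the order of the report, 5251, 3067, 2853, 1893 and 556 genes were called with the block. Without it, 5020, 2731, 2634, 1443 and 455 were called. With raw library totals in place of TMM, 6 of 24 group means in CPM moved by more than 1 SD. Depth limits Il1r1 and Il1r2, whose counts were too low for the main test and were tested only in the fit without a filter. A fit of only the groups compared was not run for the interaction, which uses all 4 groups.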
